A study of Mus musculus with 3 samples.

Results

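Phosphatidylserine and phosphatidylethanolamine are the aminophospholipids of animal membranes, and the genes described here encode the enzymes that make them. They were 6 named genes, the phosphatidylserine synthases Ptdss1 and Ptdss2, the phosphatidylserine decarboxylase Pisd, the ethanolamine kinases Etnk1 and Etnk2, and the cytidylyl transferase Pcyt2. Every probe set whose only gene symbol was one of these names was taken, which gave 19 of the 34958 probe sets with a single gene symbol and of the 45101 probe sets on the array. Ptdss2 had 9 of them, Etnk1 had 5, Ptdss1 had 3, and Pisd and Pcyt2 had 1 each. Etnk2 had no named probe set and is not analysed here. A further probe set with several symbols, Pisd among them, was left out by the rule.

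Expression was measured in WR19L, a T-lymphoma cell line from BALB/c mice, with 1 Affymetrix array for each of 3 kinds of untreated cells. The first were DKO cells, a WR19L derivative without flippase activity, that stably expressed the Q84E mutant of ATP11A. The second were DKO cells that stably expressed wild-type human ATP11A, and the third were parental WR19L cells with neither the knockout nor a transgene. ATP11A is a flippase of the plasma membrane, a pump that brings phospholipids of the outer leaflet to the inner one. The labels give neither the deleted genes, nor the promoter of the transgene, nor whether a line is a single clone, and DKO cells without a transgene were not analysed here. In any comparison with parental cells, knockout, transgene and derivation of the line therefore cannot be told apart. The 3 comparisons share arrays, so their values are given side by side and are not separate evidence.

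With 1 array per group no value has a replicate, so no SD, test or p-value is given, and the number of arrays limits the precision. Signals are MAS5 values on a linear scale, and a log2 ratio is the difference of the log2 signals of 2 arrays. Signals under the median of their own array, which was 55.5 for Q84E cells, 50.5 for wild-type ATP11A cells and 50.3 for parental cells, were treated as not measured and raised to that floor. A probe set was compared if it reached this median on at least 1 array, as 16 of the 19 did. Of these, 14 lay above the floor on all 3 arrays, and only they have all 3 ratios measured. The size of a ratio was read against the disagreement between 2 probe sets of the same gene, given as an SD for 1 probe set. This technical spread was 0.097 to 0.107 on the log2 scale for genes above the 90th percentile of level, 0.175 to 0.193 between the 75th and the 90th, and 0.311 to 0.354 below the 75th. It does not cover differences between cultures.

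Of the 10 T cell markers examined, 9 had a named probe set, and 8 of those lay above the floor on every array. Cd3e was under the floor on all 3. The 16 markers of B cells, myeloid cells, erythroid cells, fibroblasts and endothelium that were measured had no signal at the 75th percentile on any array. Of the T cell markers, 7 reached that percentile in Q84E cells, 8 in wild-type ATP11A cells and 8 in parental cells. Among the 16, Pax5, Csf1r, Col1a2 and Pecam1 lay above the floor on every array, with Pecam1 at 229 in Q84E cells and 267 in parental cells. The brighter probe set of the endogenous Atp11a gene gave 244 in Q84E cells and 253 in wild-type ATP11A cells, against 478 in parental cells. Its other probe set, 1421167_at, was under the floor in both DKO lines, at 31.7 in Q84E cells and 16.3 in wild-type ATP11A cells, against 131 in parental cells, so it was at least 2.36-fold lower in Q84E cells and at least 2.60-fold lower in wild-type ATP11A cells. The labels do not say whether Atp11a is a deleted gene, and where these mouse probes lie relative to any deletion is not known. These probes are therefore no check of the knockout, and they are no measure of a human transgene either.

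Animal cells make phosphatidylserine in the endoplasmic reticulum by exchanging the head group of an existing phospholipid for serine. Ptdss1 acts on phosphatidylcholine and Ptdss2 on phosphatidylethanolamine. Phosphatidylserine that reaches the inner mitochondrial membrane is decarboxylated by Pisd to phosphatidylethanolamine. The other route to phosphatidylethanolamine starts from free ethanolamine, which Etnk1 or Etnk2 phosphorylates, after which Pcyt2 forms CDP-ethanolamine in the step that usually limits the pathway. Lymphocytes keep phosphatidylserine on the inner leaflet through flippases, and its exposure marks dying cells for engulfment.

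Promoter sequences of RefSeq, build GRCm38.p6, were available for 4 of the 6 genes, each covering 250 bases before and 50 bases from an annotated gene start. Those of Pisd and Ptdss2 are shown because Pisd had the widest range of level over the arrays and Ptdss2 had probe sets that pointed in opposite directions. Capitals mark a GC box (GGGCGG) or a CCAAT box (CCAAT) on either strand, and no marked stretches overlap. The first Pisd start lies at chr5:32746293-32746592 on the minus strand, the second at chr5:32785577-32785876 on the minus strand, and the Ptdss2 start at chr7:141131036-141131335 on the plus strand.
Pisd first start: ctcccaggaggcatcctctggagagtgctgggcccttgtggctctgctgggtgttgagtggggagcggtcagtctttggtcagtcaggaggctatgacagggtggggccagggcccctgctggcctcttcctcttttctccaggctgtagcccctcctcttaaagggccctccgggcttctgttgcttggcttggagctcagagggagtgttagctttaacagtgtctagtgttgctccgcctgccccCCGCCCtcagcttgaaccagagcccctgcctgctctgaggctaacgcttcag
Pisd second start: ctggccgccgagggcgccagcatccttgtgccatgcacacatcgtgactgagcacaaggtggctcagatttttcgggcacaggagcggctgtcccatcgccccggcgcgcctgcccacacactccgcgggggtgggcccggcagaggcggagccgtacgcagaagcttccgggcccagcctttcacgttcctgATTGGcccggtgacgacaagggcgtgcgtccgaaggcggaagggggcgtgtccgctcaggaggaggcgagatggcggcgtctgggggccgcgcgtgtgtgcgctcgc
Ptdss2: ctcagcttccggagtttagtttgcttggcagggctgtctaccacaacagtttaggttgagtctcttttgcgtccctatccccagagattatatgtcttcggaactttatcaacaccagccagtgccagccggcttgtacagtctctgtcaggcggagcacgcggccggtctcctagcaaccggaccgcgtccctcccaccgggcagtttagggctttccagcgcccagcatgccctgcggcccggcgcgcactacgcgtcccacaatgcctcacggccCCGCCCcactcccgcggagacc
The window of the first Pisd start held 1 GC box, that of the second held 1 CCAAT box, and that of Ptdss2 held 1 GC box. Among all 32851 windows of that length, 35.7% held a GC box and 37.4% a CCAAT box. A TATA box (TATAAA), which 13.6% of all windows held, and an E-box (CACGTG), which 7.15% held, occurred in none of the 3 windows. These are letter matches in short windows and show no bound factor.

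Across the whole group, none of the 16 probe sets compared was 2-fold apart in any comparison. For Q84E over wild-type ATP11A cells, 0 of 16 were at least 2-fold higher, where 1.12% of all 21345 named probe sets past the filter were, and 0 of 16 were at least 2-fold lower, where 0.309% were. For wild-type ATP11A over parental cells the counts were 0 of 16 higher, against 0.609% of all, and 0 of 16 lower, against 0.914%. For Q84E over parental cells they were 0 of 16 higher, against 1.67%, and 0 of 16 lower, against 0.796%. A count of 0 in 16 is close to these shares. The split of these background calls depended on the scaling: 78.4% of the calls for Q84E over wild-type ATP11A were higher, and 55.3% with quantile normalization. For Q84E over parental cells the same shares were 67.7% and 47.1%. Over the 14 probe sets measured on all arrays, 7 were above 0 and 7 below in each of the 3 comparisons. Their medians were 0.0034 for Q84E over wild-type ATP11A, -0.011 for wild-type ATP11A over parental and -0.035 for Q84E cells relative to parental cells. Over all 16 compared, with values raised to the floor included, the medians were 0.078, -0.011 and 0.055 in the same order. All named probe sets past the filter, taken in that same way, had medians of 0.047, 0.0057 and 0.062. No direction was common to the group.

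**Figure D1:**
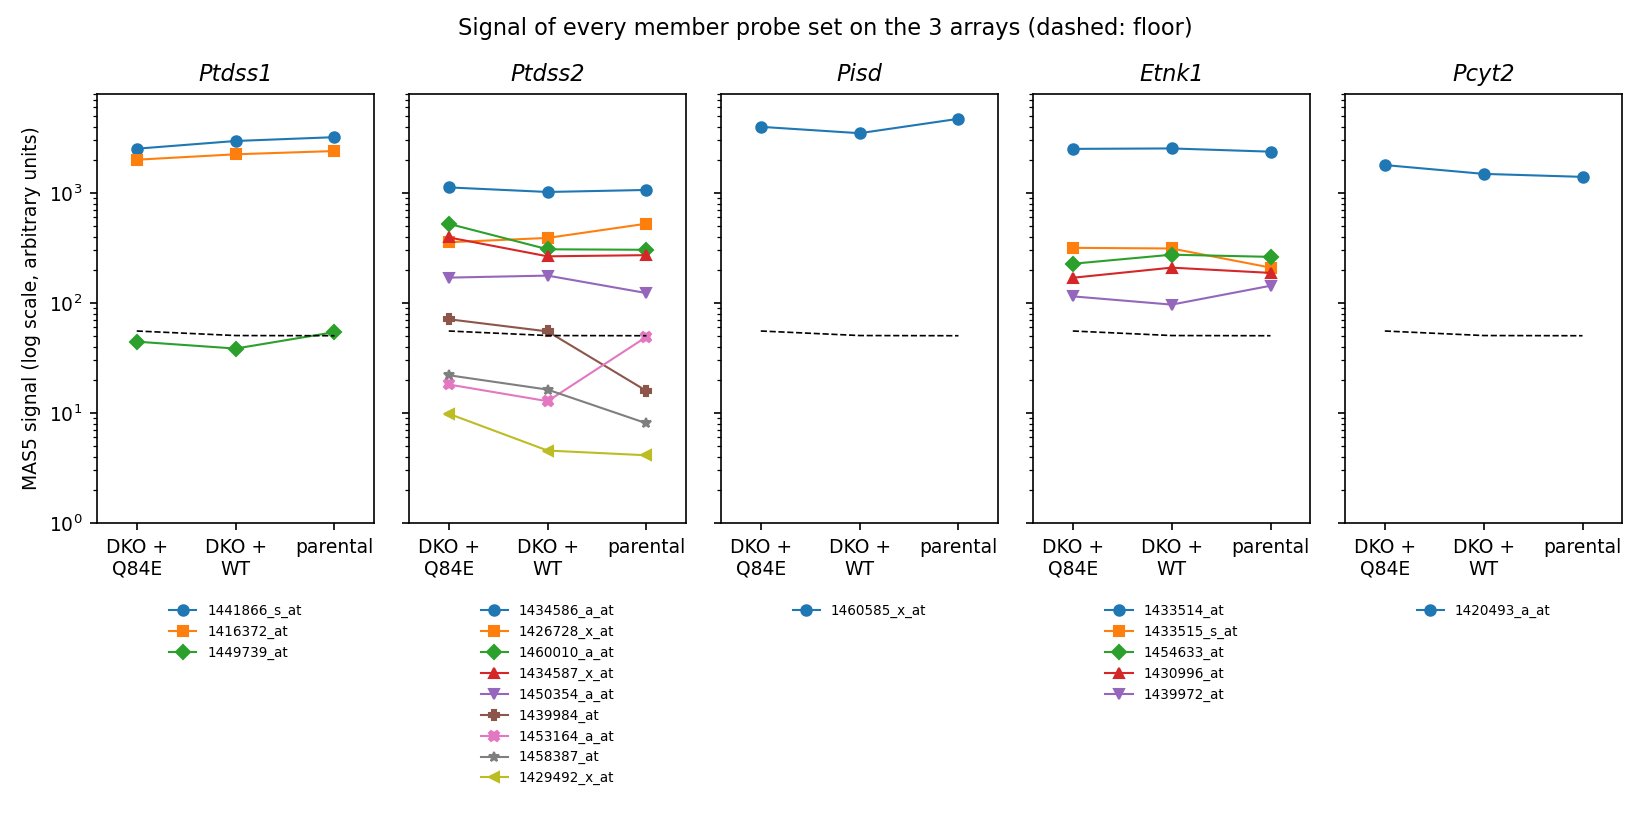
MAS5 signal (log axis) of all 19 probe sets of the 5 measured genes on the arrays of DKO cells with Q84E ATP11A, DKO cells with wild-type ATP11A and parental cells, 1 point per array, with lines joining the points of a probe set and the floor dashed. The single Pisd probe set is lowest in wild-type ATP11A cells at 3486, and both bright Ptdss1 probe sets are lowest in Q84E cells at 2520 and 2002.

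Among the synthases, Ptdss1 was lowest in Q84E cells and highest in parental cells. Its brightest probe set, 1441866_s_at, gave 2520 in Q84E cells, 2962 in wild-type ATP11A cells and 3208 in parental cells. A second bright probe set, 1416372_at, gave 2002 in Q84E cells, 2242 in wild-type ATP11A cells and 2400 in parental cells, the same order. The log2 ratio of Q84E over parental cells was -0.35 by the first, 3.27 times the technical spread, and -0.26 by the second, a 1.27-fold and a 1.20-fold lower level. Of the 2802 genes above the 90th percentile, 8.39% were at least as far from 0 in that comparison as Ptdss1. For Q84E over wild-type ATP11A cells the ratios were -0.23 and -0.16, and 13.8% of those genes were as far from 0 as the brightest probe set. The neighbours wild-type ATP11A and parental were closer, at -0.11 and -0.098, about the size of the technical spread. The remaining Ptdss1 probe set, 1449739_at, gave 44.5 and 38.5 in Q84E and wild-type ATP11A cells, both under the floor, and 54.3 in parental cells.

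Ptdss2 could not be given 1 direction, because its probe sets differed. The brightest, 1434586_a_at, stayed nearly level, with 1121 in Q84E cells, 1019 in wild-type ATP11A cells and 1063 in parental cells. All its log2 ratios, 0.14 for Q84E over wild-type ATP11A, -0.061 for wild-type ATP11A over parental and 0.076 for Q84E over parental, were smaller than the technical spread. Among the 3835 genes between the 75th and the 90th percentile the share as far from 0 was 51.6% in the first comparison, 71.9% in the second and 76.7% in the third. Dimmer probe sets were further apart. The probe set 1460010_a_at gave 524 in Q84E cells, 307 in wild-type ATP11A cells and 304 in parental cells, a ratio of 0.77 for Q84E over wild-type ATP11A, or 1.71-fold higher. With 1434587_x_at the signals were 394 in Q84E cells, 265 in wild-type ATP11A cells and 272 in parental cells, a ratio of 0.57 for Q84E over wild-type ATP11A. Both thus had their high value in Q84E cells alone. The opposite order came from 1426728_x_at, with 356 in Q84E cells, 390 in wild-type ATP11A cells and 525 in parental cells, a ratio of -0.56 for Q84E over parental. In 1450354_a_at the 2 DKO lines lay above parental cells, at 170 in Q84E cells and 177 in wild-type ATP11A cells against 123 in parental cells. Near the floor, 1439984_at gave 71.0 in Q84E cells and 55.1 in wild-type ATP11A cells, against 15.9 in parental cells, which is under the floor, so against parental cells the level in Q84E cells was at least 1.41-fold higher, and that in wild-type ATP11A cells was higher by a factor of at least 1.09. The remaining 3 probe sets were under the floor on every array. Over the 5 probe sets above the floor throughout, the ratio of Q84E over parental ran from -0.56 to 0.79 with a median of 0.47, and 4 were above 0. Affymetrix names a probe set with an a where its probes match several transcripts of the gene, and with an x where some probes also match other sequences. Whether transcript forms of Ptdss2 differ between the lines was not tested.

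**Figure D2:**
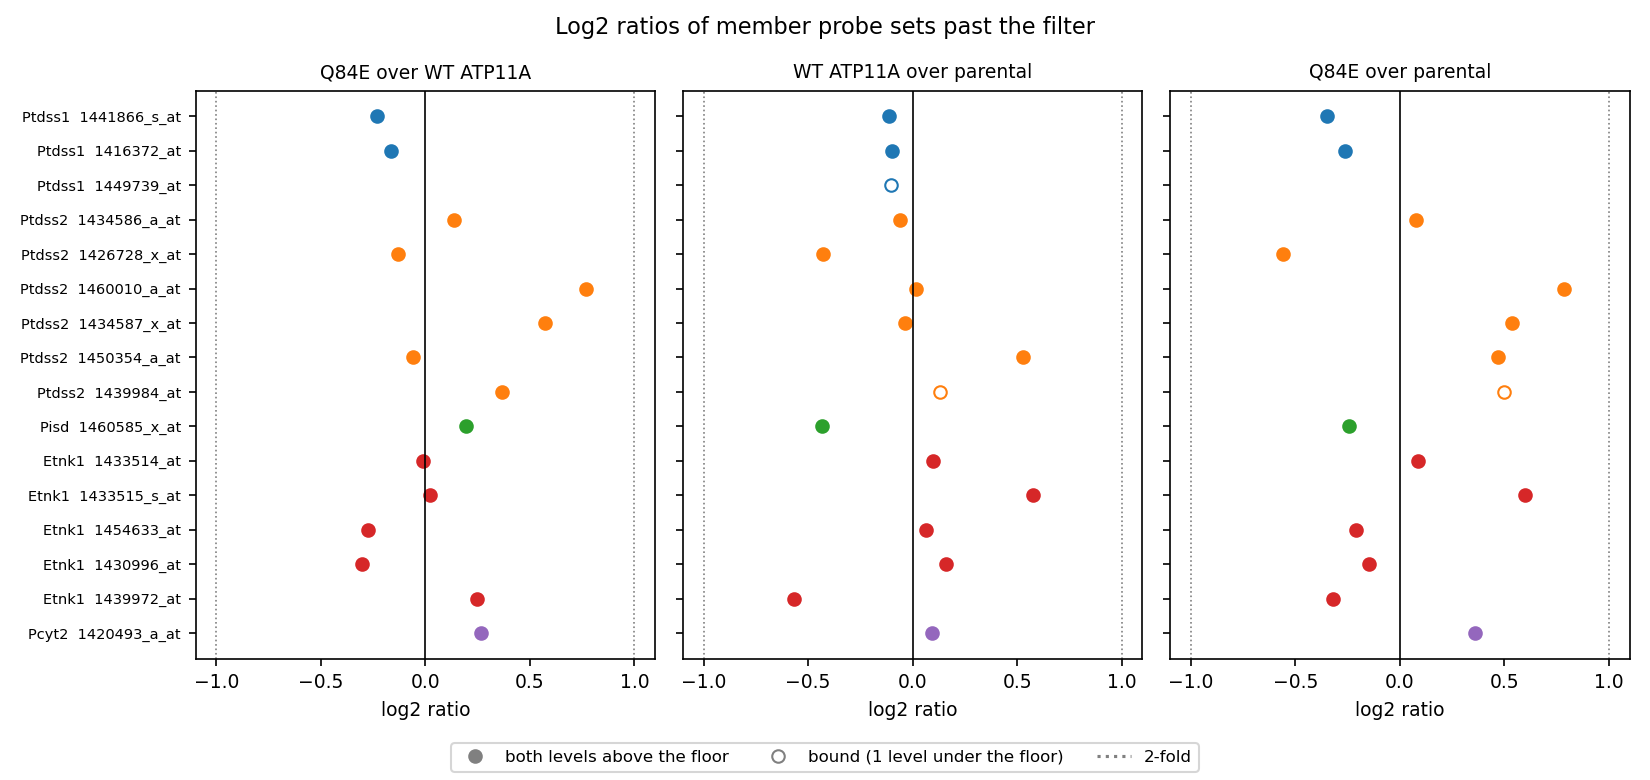
Log2 ratios (x axis) of the 16 probe sets past the filter, 1 row per probe set and 1 panel per comparison, coloured by gene, with open circles for bounds and dotted lines at 2-fold. The 2 bright Ptdss1 probe sets lie close together in every panel, while those of Ptdss2 run from -0.56 to 0.79 for Q84E over parental.

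Pisd, which turns phosphatidylserine into phosphatidylethanolamine in mitochondria, was lower in both DKO lines than in parental cells. Its only probe set, 1460585_x_at, gave 3983 in Q84E cells, 3486 in wild-type ATP11A cells and 4713 in parental cells, a range of 1.35-fold and the widest among the 5 genes by their brightest probe sets. The log2 ratio was -0.43 for wild-type ATP11A over parental, 4.51 times the technical spread. Of the 2802 genes above the 90th percentile, 46, or 1.64%, were at least as far from 0. For Q84E over parental the ratio was -0.24, 2.28 times the spread, and 20.9% of those genes were as far from 0. The DKO lines differed by 0.19 for Q84E over wild-type ATP11A, 1.97 times the spread, with 21.7% of genes as far. The probe set is of the x kind, and mouse has transcribed pseudogenes of Pisd, so its signal may come in part from transcripts of those copies. Of them Pisd-ps3 had a probe set of its own above the floor on all arrays, 1439069_a_at, at 774 in Q84E cells, 753 in wild-type ATP11A cells and 811 in parental cells. That copy had a ratio of -0.11 for wild-type ATP11A over parental and -0.066 for Q84E over parental.

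Etnk1, the kinase that starts the ethanolamine route, was nearly level by its brightest probe set. It gave 2511 in Q84E cells, 2534 in wild-type ATP11A cells and 2369 in parental cells with 1433514_at. The ratios were -0.013 for Q84E over wild-type ATP11A, 0.098 for wild-type ATP11A over parental and 0.084 for Q84E over parental, at 0.136, 1.01 and 0.792 times the technical spread. The dimmer 1433515_s_at was higher in both DKO lines, at 317 in Q84E cells and 312 in wild-type ATP11A cells, against 209 in parental cells, a ratio of 0.60 for Q84E over parental. Lower values in both DKO lines came from 1439972_at, at 115 in Q84E cells and 96.5 in wild-type ATP11A cells, against 143 in parental cells. The other two, 1454633_at and 1430996_at, were lowest in Q84E cells, at 227 and 169, against 274 and 209 in wild-type ATP11A cells and 262 and 187 in parental cells. Of the 5 Etnk1 probe sets 2 were above 0 for Q84E over parental, and their median was -0.15, opposite in sign to the brightest.

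Pcyt2, the cytidylyl transferase, was highest in Q84E cells. Its only probe set, 1420493_a_at, gave 1790 in Q84E cells, 1488 in wild-type ATP11A cells and 1398 in parental cells. The log2 ratio was 0.36 for Q84E over parental, 1.28-fold and 1.85 times the technical spread, with 19.7% of the 3835 genes between the 75th and the 90th percentile at least as far from 0. For Q84E over wild-type ATP11A it was 0.27, 1.53 times the spread, with 23.7% of genes as far. The 2 lower neighbours, wild-type ATP11A and parental, differed by 0.09, which is 0.513 times the spread. The order of Pcyt2 over the arrays was the reverse of that of Ptdss1.

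**Figure D3:**
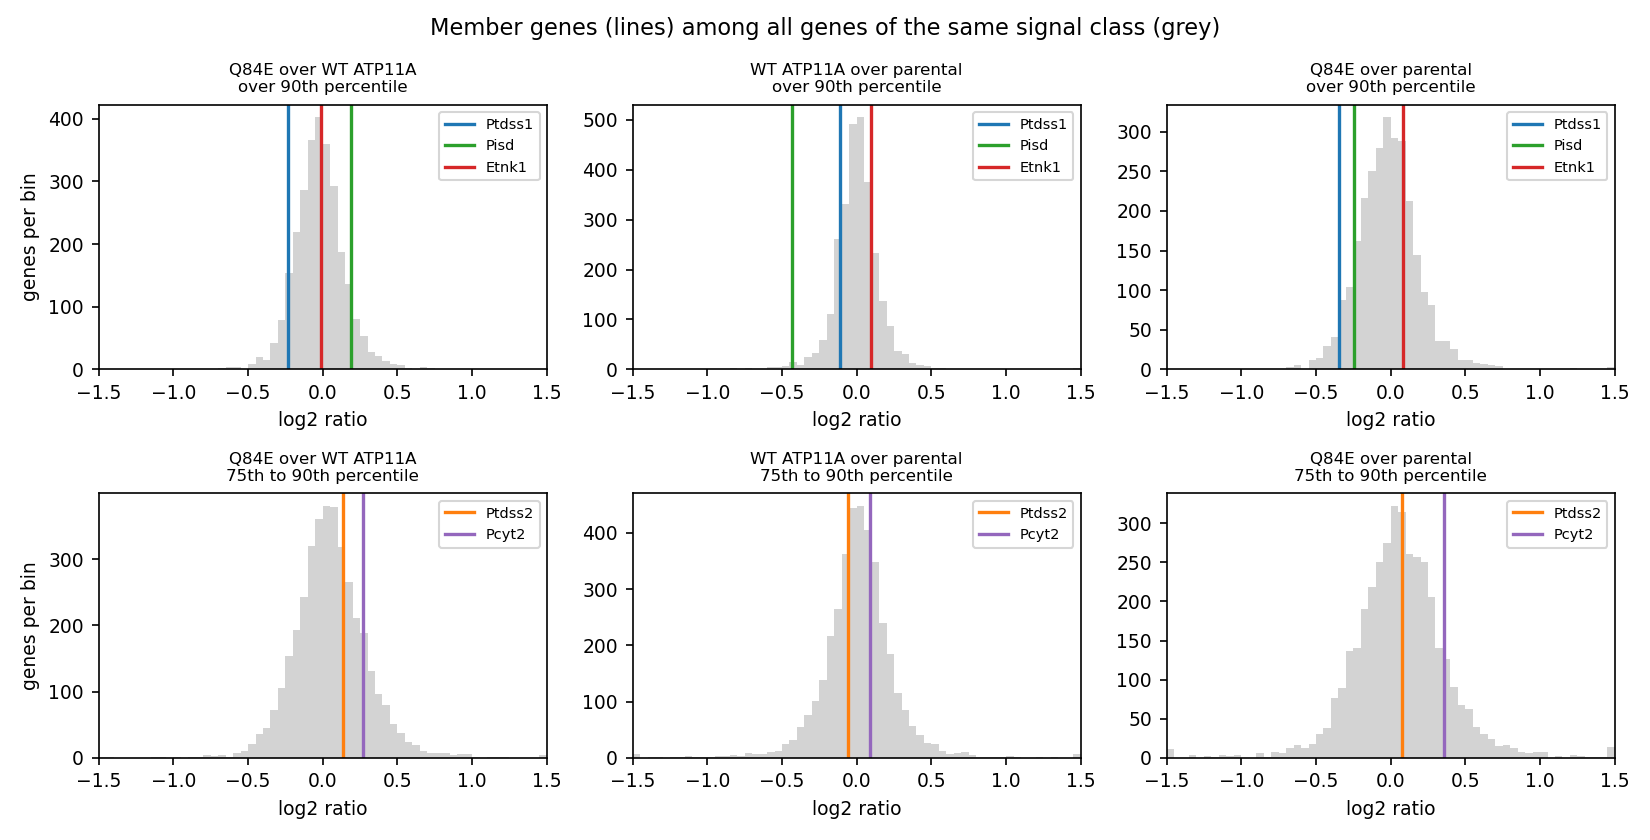
Histograms of the log2 ratio (x axis) of all genes above the 90th percentile of level (top, 2802 genes) and between the 75th and the 90th (bottom, 3835 genes), with genes per bin on the y axis, the outermost bins also holding genes beyond the axis, and lines for the member genes of that class. Pisd at -0.43 lies in the lower tail for wild-type ATP11A over parental, and the other lines lie nearer the bulk of genes.

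Since Pisd varied most, the genes with the most similar pattern were sought among the 6891 others that reached the 75th percentile, by the distance between log2 levels centred on their mean over the 3 arrays. Csrp1 was nearest at 0.0018, with 1417 in Q84E cells, 1241 in wild-type ATP11A cells and 1680 in parental cells. Fip1l1 at 0.022, Slc9a3r1 at 0.023, Rmdn1 at 0.024 and Smim11 at 0.026 followed. With 3 arrays such likeness is common, and 95 genes lay within 0.1, about the technical spread.

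The surrounding pathway was described with 4 lists of 39 genes, of which 38 had a named probe set and 32 passed the filter by their brightest one. Counts leave out genes under the floor on both arrays of a comparison. By their brightest probe sets none was 2-fold higher in any comparison, where 1.05% of all 11617 genes were for Q84E over wild-type ATP11A, 0.56% for wild-type ATP11A over parental and 1.64% for Q84E over parental. Those at least 2-fold lower numbered 0 for Q84E over wild-type ATP11A, against 0.318% of all genes, 1 for wild-type ATP11A over parental, against 0.912%, and 1 for Q84E over parental, against 0.792%. The one gene was Osbpl5, which encodes a protein that exchanges phosphatidylserine and phosphoinositides between the endoplasmic reticulum and the plasma membrane. Its signal was 112 in parental cells and under the floor in both DKO lines, so it was at least 2.01-fold lower in Q84E and at least 2.21-fold lower in wild-type ATP11A cells. It passed the filter through the parental array alone, and with the floor at the 60th percentile the log2 bounds were -0.13 for Q84E over parental and -0.27 for wild-type ATP11A over parental, short of 2-fold. Over all 70 probe sets of these genes past the filter, Shmt2 and Slc44a2 also had probe sets past 2-fold. In Q84E over wild-type ATP11A cells 2 were higher, both of Shmt2, against 1.12% of all 21345 probe sets. For wild-type ATP11A over parental 2 were lower, 1 of Osbpl5 and 1 of Shmt2, against 0.914%. With Q84E over parental 2 were higher, 1 of Shmt2 and 1 of Slc44a2, against 1.67%, and the Osbpl5 one was lower, against 0.796%.

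Of the genes that use or supply ethanolamine, 9 of 12 were compared. Selenoi and Cept1, the phosphotransferases that join CDP-ethanolamine to diacylglycerol, gave 2660 and 2007 in Q84E cells, 2697 and 2052 in wild-type ATP11A cells, and 2486 and 2037 in parental cells. By their brightest probe sets both were within 0.12 on the log2 scale in all 3 comparisons. For wild-type ATP11A over parental, 2 of the 4 Selenoi probe sets were above 0 and 2 below, with 1435797_at at -0.64. Slc44a2, a choline transporter-like protein, was 1.53-fold higher in Q84E than in wild-type ATP11A cells, at 2097 against 1369, with 1467 in parental cells. Its dimmer probe set 1428065_at gave 657 in Q84E cells, 344 in wild-type ATP11A cells and 324 in parental cells, a ratio of 1.02 for Q84E over parental where the brightest had 0.52. Its relative Slc44a1, a transporter of choline and ethanolamine, gave 1283 in Q84E cells, 1048 in wild-type ATP11A cells and 1044 in parental cells. Flvcr1, a transporter of choline and ethanolamine, had ratios of -0.23 for Q84E over wild-type ATP11A and -0.16 for Q84E over parental. The dimmer Flvcr1 probe set 1425399_at had -0.56 and -0.62 in the same order. For Q84E over wild-type ATP11A 4 genes were above 0 and 5 below, with a median of -0.020 against 0.036 for all genes. For wild-type ATP11A over parental 8 were above 0 and 1 below, with ratios from -0.099 to 0.118 and a median of 0.068 against 0.011. Of all genes, 52.6% were above 0 in that comparison. Q84E over parental gave 5 above 0 and 4 below, with a median of 0.098 against 0.057.

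Of the genes listed for phosphatidylserine transport to mitochondria, where Pisd acts, or to the plasma membrane, 6 of 7 were compared. That each of their products carries phosphatidylserine was not tested. By their brightest probe sets all 6 were below 0 for Q84E over parental, with a median of -0.17 against 0.057 for all genes, of which 58.4% were above 0. That median includes the bound of Osbpl5, and over the 5 measured on both arrays it was -0.022, with Prelid1, Triap1 and Osbpl8 at -0.020, -0.022 and -0.0017. Prelid1 had 5 probe sets, of which 4 were above 0 in that comparison. Prelid3b, a carrier of phosphatidylserine between the mitochondrial membranes, gave 2105 in Q84E cells, 2777 in wild-type ATP11A cells and 2635 in parental cells, a ratio of -0.40 for Q84E over wild-type ATP11A. Prelid3a, its relative, gave 333 in Q84E cells, 265 in wild-type ATP11A cells and 430 in parental cells, a ratio of -0.70 for wild-type ATP11A over parental. The other Prelid3a probe set, 1425224_at, had the opposite sign in that comparison, at 0.40. For wild-type ATP11A over parental 3 of the 6 genes were above 0 and 3 below by their brightest probe sets, with a median of -0.098 against 0.011. For Q84E over wild-type ATP11A 2 genes were above and 3 below, with a median of -0.042 against 0.036.

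Enzymes of turnover and acyl remodelling showed small differences by their brightest probe sets. Abhd16a, a phosphatidylserine lipase, gave 936 in Q84E cells, 806 in wild-type ATP11A cells and 773 in parental cells, a ratio of 0.28 for Q84E over parental. Its dimmer probe set 1460709_a_at gave 520 in Q84E cells, 404 in wild-type ATP11A cells and 280 in parental cells, a ratio of 0.89 for Q84E over parental. Lpcat3 and Lpcat4, which reacylate lysophospholipids, had ratios of 0.20 and 0.20 for Q84E over wild-type ATP11A and -0.19 and -0.12 for wild-type ATP11A over parental. For Q84E over wild-type ATP11A 5 of 6 were above 0, with a median of 0.12 against 0.036 for all genes, of which 56.6% were above 0. The medians of the other comparisons were -0.028 for wild-type ATP11A over parental and 0.047 for Q84E over parental.

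Serine is the other substrate of Ptdss1 and Ptdss2, and all 11 genes of its supply were compared. By their brightest probe sets the enzymes of serine synthesis were nearly equal on the 3 arrays. Phgdh, the first of them, gave 14870 in Q84E cells, 14970 in wild-type ATP11A cells and 14160 in parental cells, and Psat1 gave 17390, 16440 and 16860 in the same order. The dim Phgdh probe set 1454714_x_at gave 130 in Q84E cells, 74.4 in wild-type ATP11A cells and 101 in parental cells. Its ratio was 0.81 for Q84E over wild-type ATP11A. Serinc3, a member of the serine incorporator family, gave 1863 in Q84E cells, 1527 in wild-type ATP11A cells and 1412 in parental cells, a ratio of 0.40 for Q84E over parental. Of its 4 probe sets past the filter 3 were above 0 there, and the dim 1434548_at had the opposite sign, at 107 in Q84E cells, 147 in wild-type ATP11A cells and 142 in parental cells, a ratio of -0.40. Shmt1, which turns serine into glycine in the cytosol, had a ratio of -0.24 for Q84E over parental by its brightest probe set. All 4 Shmt1 probe sets were below 0 there, with a median of -0.34. Shmt2, its mitochondrial counterpart, could not be given 1 size of difference. Its brightest probe set had a ratio of 0.13 for Q84E over wild-type ATP11A and 0.18 for Q84E over parental, while a pair of dim ones, both of the x kind, were far higher in Q84E cells. The first, 1434204_x_at, gave 530 in Q84E cells, 101 in wild-type ATP11A cells and 91.2 in parental cells, and 1455985_x_at gave 462 in Q84E cells, 79.4 in wild-type ATP11A cells and 240.5 in parental cells. Their ratios for Q84E over wild-type ATP11A were 2.38 and 2.54, and for Q84E over parental 2.54 and 0.94. As a mean over all 4 probe sets Shmt2 had 1.30 for Q84E over wild-type ATP11A, and as a median 1.26. In Q84E over parental 10 of 11 were above 0 by their brightest probe sets, with a median of 0.087 against 0.057 for all genes. For Q84E over wild-type ATP11A 9 were above 0, with a median of 0.081 against 0.036. For wild-type ATP11A over parental 8 were above 0, with a median of 0.040 against 0.011. The shares of all genes above 0 were 58.4%, 56.6% and 52.6% in the same order.

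**Figure D4:**
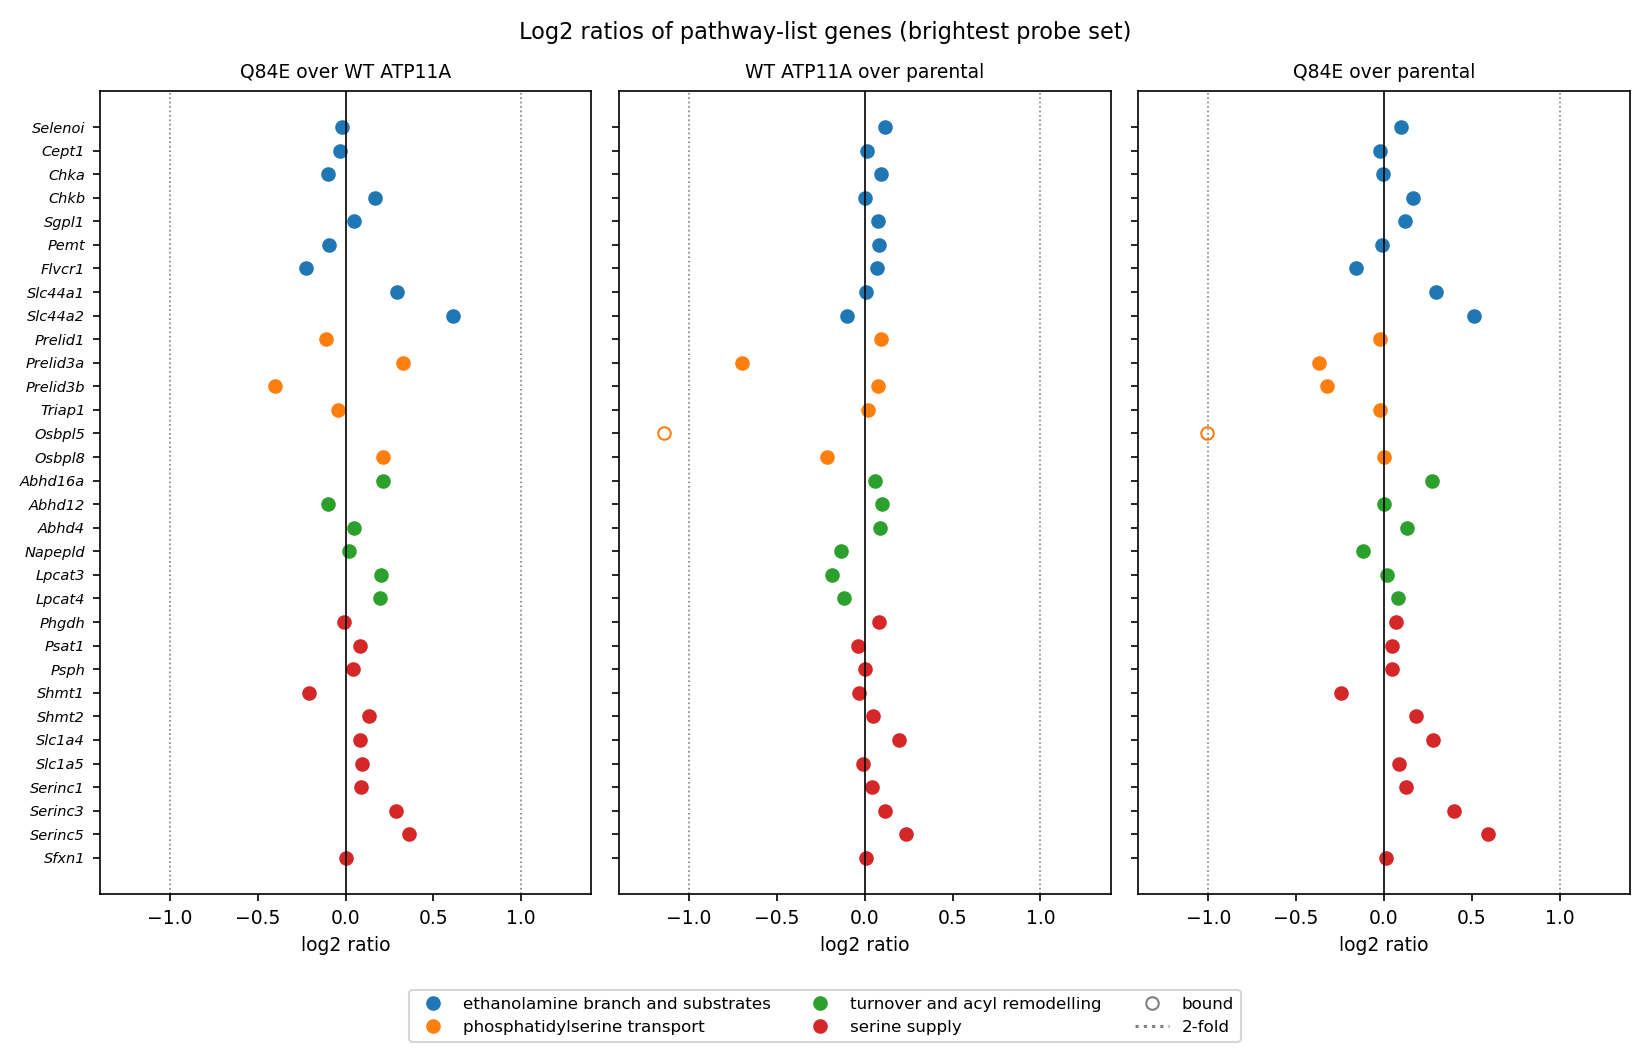
Log2 ratios (x axis) of the 32 pathway genes past the filter by their brightest probe set, 1 row per gene and 1 panel per comparison, coloured by list, with open circles for bounds and dotted lines at 2-fold. By these brightest probe sets only Osbpl5 reaches 2-fold, as a bound in both comparisons with parental cells.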

How the data were processed

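The authors deposited 1 intensity per probe set and array, a MAS5 signal on a linear scale; MAS5 is named in the submitters' processing notes, without a version. Per the labels' protocols, 250 ng of total RNA went into each biotin labelling. Scanner and genome build were not stated in the labels. Each array had a trimmed mean of 500.0 over 45101 probe sets, leaving out 2% at each end, and that scaling was kept, although it can hide a shift common to many genes. Gene names came from the platform annotation, with 34958 probe sets of 1 symbol, 932 of several and 9211 not listed. RefSeq identifiers matched 34754 of the first, and 0 symbols changed.

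From these signals log2 levels were computed with Python 3.11.15, numpy 2.4.6 and pandas 2.3.3. The floor and the filter were the 50th percentile of each array. A gene is represented by its brightest probe set over the 3 arrays, and 11617 of 18194 genes passed. Groups were taken from the genotype labels and, for Q84E, the title. Differences were counted by size, at least 2-fold. The technical spread used 1 pair of probe sets per gene, both above the floor throughout and within 1 log2 unit in level. Named pathway genes were up to 3 per list and comparison with the largest ratio among those reaching the 75th percentile on an array, and any past 2-fold. Scaling, floor, filter and choice of probe set were varied. The members and lists were chosen with earlier results of these data known. The counting was tested on simulated data, with the same noise at all levels and changes planted only in genes above the 75th percentile. That test does not cover the larger spread of low signals.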

Additional observations from a re-analysis of the deposited data

How the results depend on the processing

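Of 159 values of the member genes under 11 other settings, 155 kept their sign and 152 stayed within the technical spread of the reported value; Pisd and Pcyt2 have no probe set left without the s, x and a kinds. With the mean of all probe sets, Ptdss1 was -0.086 for Q84E over wild-type ATP11A and -0.19 for Q84E over parental, and it includes a probe set at the floor. Without s, x and a probe sets, Ptdss2 rests on 1439984_at, at 0.37 for Q84E over wild-type ATP11A, 0.13 for wild-type ATP11A over parental and 0.50 for Q84E over parental. As a median over probe sets, Q84E over parental was 0.48 for Ptdss2 and -0.15 for Etnk1. The other changes of sign were Ptdss2 for wild-type ATP11A over parental with the mean of all probe sets, at 0.018, and Etnk1 for Q84E over wild-type ATP11A with quantile normalization, at 0.0012. Of 475 values of the named pathway genes, 455 kept their sign and 31 moved by more than the technical spread. Serinc3 turned to -0.45 for Q84E over wild-type ATP11A and -0.40 for Q84E over parental without s, x and a probe sets. With no floor, or a floor at the 25th percentile, 1 member probe set was past 2-fold for each DKO line over parental, 1439984_at.

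The counts over all probe sets or genes past 2-fold moved by over 1.5 times with the floor and the filter. For Q84E over wild-type ATP11A they were 1463 probe sets and 824 genes with no floor, 1401 and 790 with the 25th percentile, 120 and 60 with the 60th, and 64 and 34 with a filter at the 75th. For wild-type ATP11A over parental they were 1512 and 842, 1463 and 813, 160 and 88, and 99 and 58 under the same settings. For Q84E over parental cells they were 1767 and 982, 1715 and 947, 281 and 157, and 161 and 98. With the mean of all probe sets of a gene they were 91, 103 and 179 genes. Each of these settings admits more or fewer low signals. No paired analysis was possible because each group has 1 array. Leaving out a replicate was not possible for the same reason, and low signals limit what the dimmer probe sets can show.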

Other observations

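Opposite directions among probe sets of a gene also occurred in the surrounding pathway. The second Prelid3a probe set, 1425224_at, gave 295 in Q84E cells, 394 in wild-type ATP11A cells and 298 in parental cells, a ratio of 0.40 for wild-type ATP11A over parental where the brightest had -0.70. Selenoi had 4 probe sets, and 1435797_at gave 513 in Q84E cells, 431 in wild-type ATP11A cells and 674 in parental cells, a ratio of -0.64 for wild-type ATP11A over parental where the brightest had 0.12. Slc44a2 had ratios of 0.61, 0.94 and 0.13 over its 3 probe sets for Q84E over wild-type ATP11A, all above 0. Abhd16a had 0.28 and 0.89 over its 2 probe sets for Q84E over parental, both above 0.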
